A study of Drosophila melanogaster with 6 samples.

Results

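Genes of the cell cycle and of DNA replication were followed on 6 Affymetrix arrays of total RNA from Drosophila melanogaster S2 cells, a haemocyte-like embryonic line that divides in culture. The arrays held 2 control transfections and cells given pAc-Clk, a plasmid for expressing the clock transcription factor Clk, at 10 ng (2 arrays), 30 ng (1 array) and 100 ng (1 array). The series text describes the control plasmid as an empty vector, and RNA was taken after 48 h in all groups. The labels do not say what share of cells took up plasmid, and nothing says that the numbered arrays came from separate cultures, so the p-values measure a spread that may be technical. A list of 34 genes was looked up by current symbol and matched to probe sets by gene identifier, whatever symbol the probe set carried. Of the 34 genes, 22 had at least 1 probe set of their own, out of 11982 genes with such a probe set on the array. E2f1 was represented only by a probe set shared with Torsin, and no listed probe set carried the other 11 (CycA, Cdk1, stg, dap, RnrS, Mcm7, geminin, aurA, polo, BubR1 and pav). The probe set annotated gem belongs to another gene by its identifier and was not used for geminin.

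Progress through the cell cycle is driven by cyclin-dependent kinases, which are switched on by cyclins and restrained by inhibitors, phosphorylation and cyclin destruction. Rbf holds the E2f1-Dp transcription factor in check until cyclin D-Cdk4 and cyclin E-Cdk2 phosphorylate it, after which E2F targets such as PCNA, the ribonucleotide reductase genes and the Mcm genes are transcribed for S phase. Origins are licensed by the origin recognition complex and dup, which load the Mcm helicase, and mitosis is then run by cyclin B kinases, the Aurora and Polo kinases, motor proteins and the anaphase-promoting complex.

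Signals are log2 values whose scale had to be worked out from the deposited numbers, and a face-value reading would multiply each log2 change by 1.44. Each gene is represented by its brightest probe set by mean over the 6 arrays, and levels are not compared between genes, because probe sets differ in response. All 22 genes passed the filter of a signal of 4 or more on at least 2 arrays. A gene was called at a limma adjusted p under 0.05, with Benjamini-Hochberg adjustment over all 8446 probe sets tested in that comparison. The SD of the control pair lay between 0.0051 (CycB) and 0.37 (CycB3), and the SD of the 10 ng pair between 0.017 (Mcm3) and 0.51 (CycE), with n = 2 each.

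The RNA and the arrays differed between doses in ways that touch the results below. On probe sets along the actin, eIF-4a and GAPDH control transcripts, the mean 5' minus 3' signal was -0.75 on each control array, then -1.25 and -0.64 (10 ng), -9.40 (30 ng) and -8.25 (100 ng). The middle minus 3' signal was -0.34 and -0.45 in controls, -0.47 and -0.35 with 10 ng, -2.75 with 30 ng and -6.49 with 100 ng. Loss of 5' signal and dose cannot be told apart at 30 and 100 ng, and its part in the changes of the cell cycle genes was not tested. The Clk probe set itself read 2.50 and 2.84 in controls, 3.46 and 3.47 with 10 ng, 5.07 with 30 ng and 4.66 with 100 ng. All 10 haemocyte-line markers, among them srp, Hml and eater, read between 7.95 and 14.67, whereas the 3 measured muscle markers and the 3 measured gut markers did not pass the filter. Of the 3 measured markers in each of the other lists, 2 neuronal (elav and brp), 2 germ line (bam and aub) and 1 fat body marker (Fbp1) passed.

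**Figure D1:**
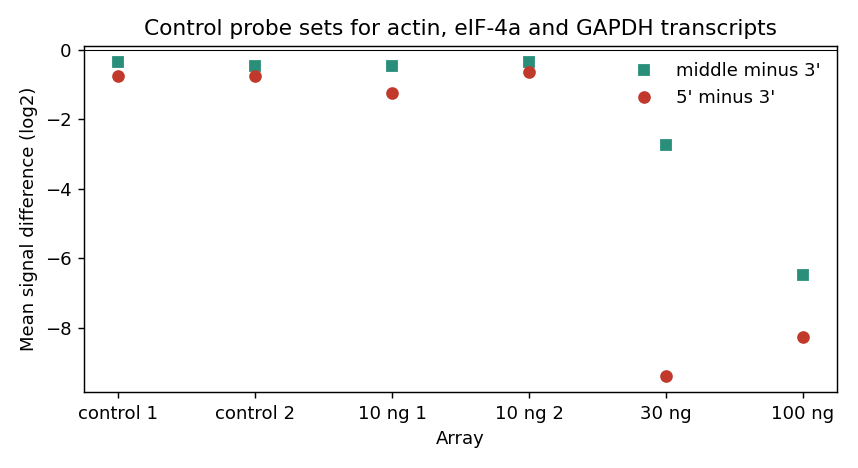
Mean difference in log2 signal between the 5' and 3' probe sets (circles) and between the middle and 3' probe sets (squares) of 3 control transcripts, for each of the 6 arrays on the horizontal axis. The 5' difference lies between -0.64 and -1.25 on the control and 10 ng arrays and at -9.40 and -8.25 on the 30 and 100 ng arrays.

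At 10 ng, the dose with 2 arrays, no cell cycle gene passed the test against the control transfection. Of the 22 genes, 0 were called higher, where 0.0605% of all 6612 genes were, and 0 were called lower, where 0% were (limma). At an unadjusted p under 0.05 (limma) the count was also 0, against 130 of all 6612 genes. The median log2 change was -0.10 over the 22 genes and -0.09 over all genes tested. The 95% intervals of the 22 changes lay within -1.002 and 0.46, and changes beyond these bounds lay outside every interval.

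The widest of these intervals was that of CycE, which encodes the cyclin that starts S phase with Cdk2. CycE read 8.31 and 9.04 at 10 ng, against 8.996 and 9.29 in controls. The 10 ng arrays themselves differed by more than the group means, and the ranges overlapped, with a change of -0.47 (SE 0.24, 95% interval -1.002 to 0.06, unadjusted p = 0.0779 and adjusted p = 1.00 by limma). CycD, the growth-responsive cyclin partner of Cdk4, read 8.44 and 8.48 at 10 ng and 8.69 and 8.83 in controls. Its groups did not overlap, and its change of -0.30 (SE 0.17) was not called. Both 10 ng arrays lay under both controls for 5 of the 22 genes (22.7%), namely CycD, PCNA, Mcm3, ncd and fzr, against 22.9% of all genes. For none of the 22 did both 10 ng arrays lie above both controls, against 3.57% of all genes.

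The smallest differences at 10 ng were those of Cdk2 (-0.001), Orc2 (0.01), Mcm2 (0.02) and Mcm6 (-0.02). Among the replication genes, Mcm2, Mcm5, Orc2 and Orc5 were nominally above controls, by between 0.01 and 0.05, and the other 6 were below, down to -0.16 (PCNA). The 4 mitotic genes differed by between -0.09 (aurB) and -0.17 (fzr).

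**Figure D2:**
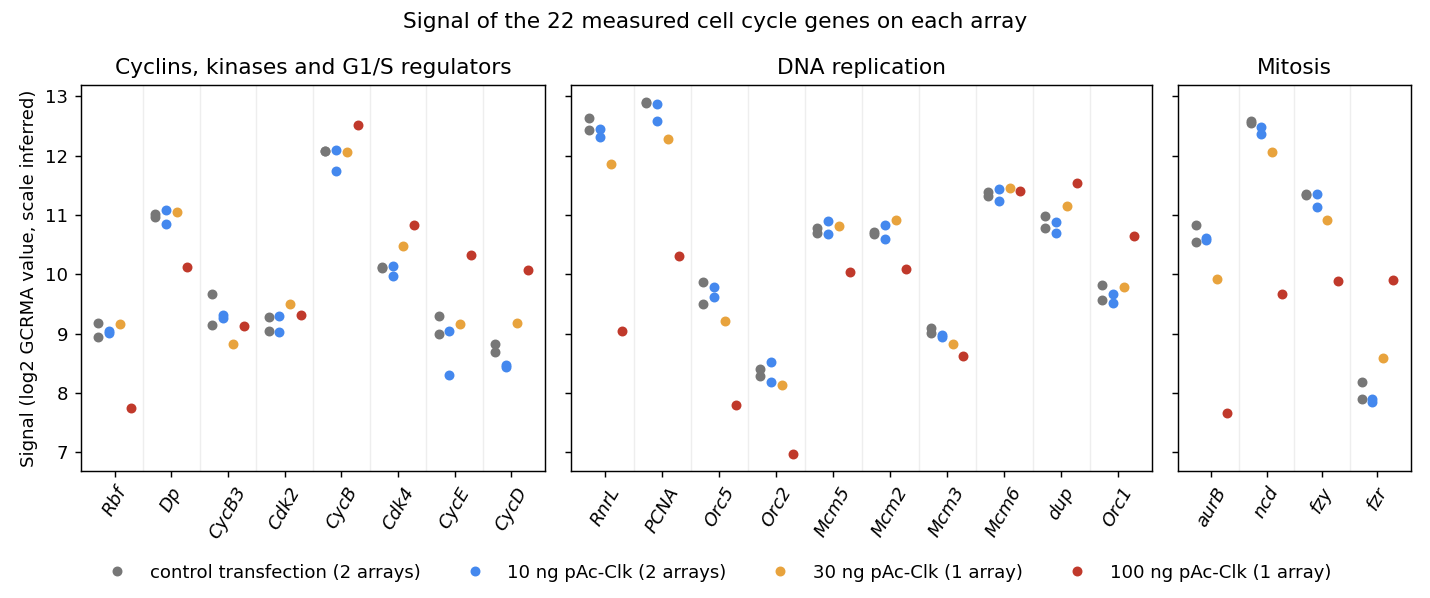
Signal of each of the 22 measured genes (vertical axis, log2 GCRMA value) on the 6 arrays, with 1 point per array, coloured by control transfection (2 arrays), 10 ng (2 arrays), 30 ng (1 array) and 100 ng (1 array), and genes ordered within each panel by their change at 100 ng. The mean of the 10 ng points differs from that of the controls by between -0.47 (CycE) and 0.05 (Mcm5), whereas the 100 ng point of RnrL (9.05) lies far below its controls (12.43 and 12.63) and that of fzr (9.91) above its controls (7.90 and 8.18).

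At 30 ng, 3 of the 22 genes fell and 0 rose. The 3 genes were RnrL, PCNA and aurB, that is, 2 of 10 replication genes, 1 of 4 mitotic genes and 0 of 8 cyclins, kinases and their regulators. The share called lower was 13.6%, against 10.4% of all genes, and 6.22% of all genes were called higher. The median change of the 22 genes was 0.03, against 0.15 over all genes. This dose is a single array, assumed to vary like the replicated groups.

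RnrL encodes the large subunit of ribonucleotide reductase, which makes the deoxynucleotides for DNA synthesis. It read 12.43 and 12.63 in controls, 12.44 and 12.31 with 10 ng, 11.86 with 30 ng and 9.05 with 100 ng. The higher doses lay, both of them, below all 4 control and 10 ng arrays. RnrL fell, with a change at 30 ng of -0.67 (SE 0.17, adjusted p = 0.0232) and at 100 ng of -3.48 (SE 0.17, 11.2-fold, adjusted p = 9.70e-08).

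PCNA is the sliding clamp that keeps DNA polymerases on the template. Its signal was 12.89 and 12.89 in controls, 12.88 and 12.59 with 10 ng, 12.29 with 30 ng and 10.30 with 100 ng, so every Clk array lay under both controls. PCNA differed by -0.61 at 30 ng (SE 0.17, adjusted p = 0.0378) and by -2.59 at 100 ng (SE 0.17, 6.01-fold, adjusted p = 7.49e-07). aurB, the kinase of the chromosomal passenger complex, read 10.83 and 10.54 in controls, 10.62 and 10.58 with 10 ng, 9.92 with 30 ng and 7.66 with 100 ng. The 10 ng values lay within the range of the controls, and the values at the higher doses lay below it. Its change was -0.77 at 30 ng (SE 0.19, adjusted p = 0.0228) and -3.03 at 100 ng (SE 0.19, 8.16-fold, adjusted p = 5.48e-07).

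With no filter on dim probe sets, or at face value, 0 of the 22 genes were called at 30 ng (limma, adjusted p between 0.0889 and 0.156 for these 3). Of all genes, 2.12% were then called lower and 1.64% higher with no filter, and 3.75% and 1.31% at face value. Without control replicate 1 the calls of PCNA and aurB were lost, and without control replicate 2 those of RnrL and PCNA. Over 15 alternatives the 30 ng call of PCNA was lost in 5, that of RnrL in 4 and that of aurB in 3. ncd, a minus-end-directed spindle motor, differed by -0.50 at 30 ng (SE 0.15) and just missed the threshold (adjusted p = 0.0508). It was called lower in 7 of 15 alternatives.

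At 100 ng, 11 of the 22 genes fell, 7 rose and 4 did not pass. The shares were 50% lower and 31.8% higher, against 35.4% and 34.9% of all genes, and the median change was -0.52, against 0.05 over all genes. By group, 6 of 10 replication genes fell and 2 rose, 3 of 4 mitotic genes fell and 1 rose, and 2 of 8 cyclins, kinases and regulators fell and 4 rose. Their median changes were -0.66, -2.18 and 0.30. Calls in both directions were common on this array, and the shares of the 22 genes were not tested against those of all genes. After centring each array on its median, 13 of the 22 fell and 4 rose, against 43.3% and 23.1% of all genes. As these are pooled cells, fewer cells in a phase of the cycle and less of an RNA in each cell cannot be told apart.

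**Figure D3:**
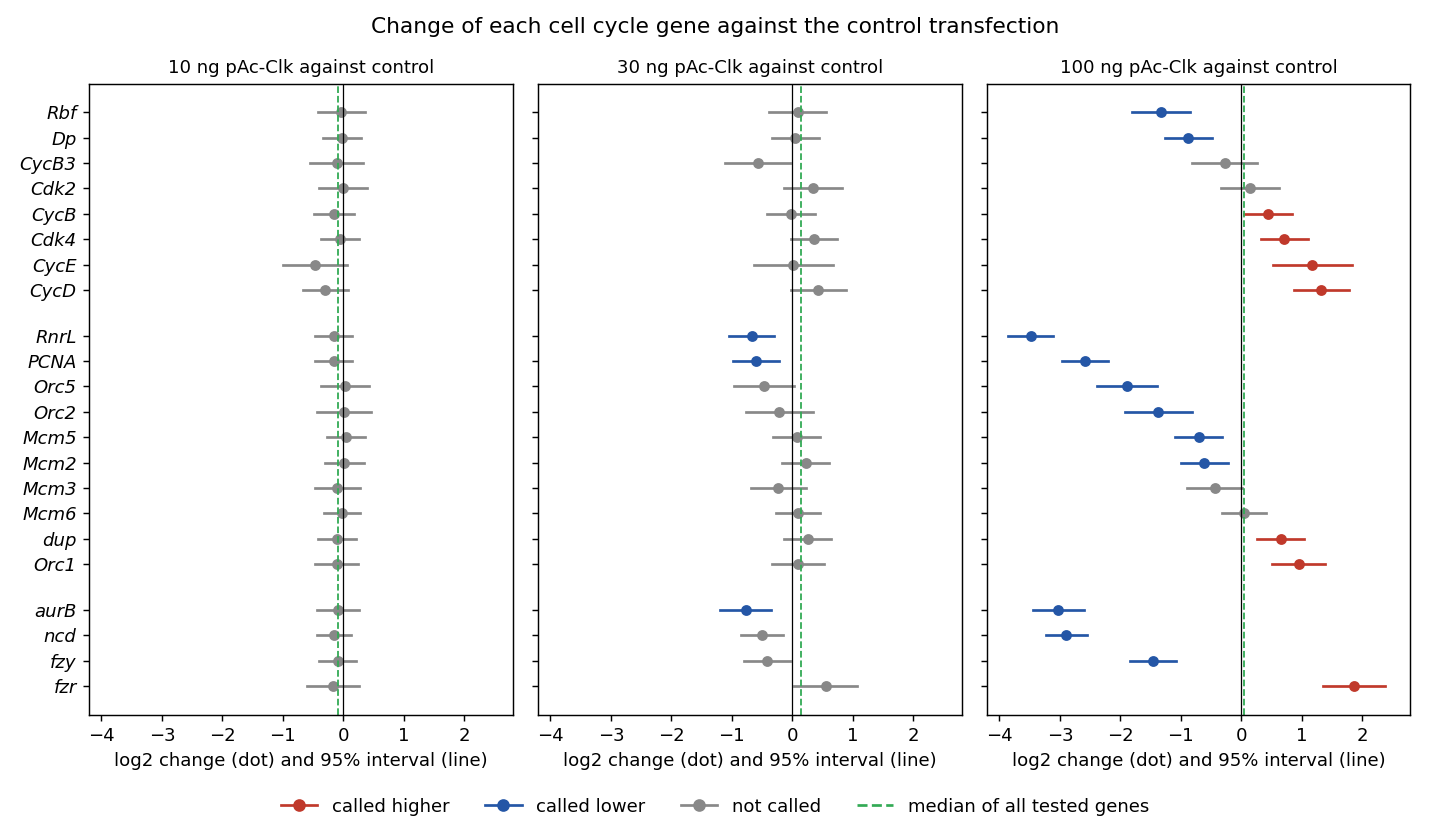
Log2 change against the control transfection (dots) with its 95% interval (lines) for the 22 genes at 10, 30 and 100 ng, in order of the change at 100 ng within cyclins and kinases, replication and mitosis from top to bottom; the dashed line is the median of all 6612 genes. No gene is called at 10 ng, RnrL, PCNA and aurB are called lower at 30 ng, and 11 genes are called lower and 7 higher at 100 ng.

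Among the cyclins and kinases, the cyclins of the start of the cycle were higher at 100 ng. CycD read 8.69 and 8.83 in controls, 8.44 and 8.48 with 10 ng, 9.19 with 30 ng and 10.08 with 100 ng. The 30 and 100 ng arrays lay above all other arrays, and the change was 0.43 at 30 ng (SE 0.20, adjusted p = 0.162) and 1.32 at 100 ng (SE 0.20, 2.50-fold, adjusted p = 0.000248). CycE read 9.16 at 30 ng and 10.32 at 100 ng, against 8.996 and 9.29 in controls, and its rise at 100 ng was 1.18 (SE 0.29, 2.26-fold, adjusted p = 0.00475). That call was lost when no filter on dim probe sets was applied (adjusted p = 0.0647).

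Cdk4, the kinase partner of cyclin D, read 10.12 and 10.11 in controls, 10.14 and 9.98 with 10 ng, 10.48 with 30 ng and 10.83 with 100 ng. The rise of 0.71 at 100 ng (SE 0.17, adjusted p = 0.00428) was lost with median centring (0.31, adjusted p = 0.195). Cdk2, which partners cyclin E, read 9.51 at 30 ng and 9.31 at 100 ng, against 9.04 and 9.28 in controls. Both values lay above every control and 10 ng array (at most 9.29), but neither change was called (0.35 and 0.15, 95% intervals -0.14 to 0.83 and -0.33 to 0.63).

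CycB, the mitotic cyclin, read 12.08 and 12.07 in controls, 12.09 and 11.75 with 10 ng, 12.05 with 30 ng and 12.52 with 100 ng. The rise of 0.45 (SE 0.18, adjusted p = 0.0464) was lost in 7 of 15 alternatives, among them median centring (0.04, adjusted p = 0.858) and leaving out either control array (0.45 and 0.44, adjusted p = 0.166 and 0.171). CycB3, a further mitotic cyclin, was measured with the widest spread in controls (9.14 and 9.66) and differed by -0.57 at 30 ng and -0.27 at 100 ng, neither of them called. The 30 ng change of CycB3 was called lower in 2 of 15 alternatives, and its 100 ng change with median centring (-0.68, adjusted p = 0.0256).

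Rbf and Dp, the repressor and the DNA-binding partner of E2F, were lower at 100 ng. Rbf read 8.95 and 9.18 in controls, 9.02 and 9.05 with 10 ng, 9.16 with 30 ng and 7.74 with 100 ng. Only the 100 ng array of these 6 stood apart, with a change of -1.32 (SE 0.21, 2.50-fold, adjusted p = 0.000332). Dp read 10.12 at 100 ng, against 11.01 and 10.97 in controls and 10.85 to 11.08 on the other Clk arrays, a change of -0.87 (SE 0.17, adjusted p = 0.00118). At 30 ng Rbf differed by 0.09 and Dp by 0.05, and neither was called.

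The shared probe set of E2f1 and Torsin read 2.89 and 3.31 in controls, 2.86 and 3.42 with 10 ng, 2.97 with 30 ng and 4.25 with 100 ng. The highest of the Tag control probe sets, which match no fly transcript, lay between 2.95 and 3.56 on these arrays. The signal was therefore at or near background on all but the 100 ng array, it did not pass the filter, and it cannot be assigned to E2f1.

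Of the replication genes, the origin recognition complex did not move as a block. Orc5 read 9.50 and 9.86 in controls, 9.79 and 9.62 with 10 ng, 9.22 with 30 ng and 7.79 with 100 ng. It fell at 100 ng, with a change of -1.89 (SE 0.22, 3.69-fold, adjusted p = 4.26e-05), with both higher doses under all 4 other arrays. Orc2 read 8.14 at 30 ng and 6.98 at 100 ng, against 8.29 and 8.41 in controls, and its change at 100 ng was -1.37 (SE 0.25, 2.59-fold, adjusted p = 0.000692). Orc1, the largest subunit, read 9.57 and 9.82 in controls, 9.66 and 9.51 with 10 ng, 9.79 with 30 ng and 10.64 with 100 ng. It was higher at 100 ng by 0.95 (SE 0.19, 1.93-fold, adjusted p = 0.00153), the direction opposite to Orc2 and Orc5 on the same array.

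Of the 4 measured subunits of the Mcm helicase, 2 fell at 100 ng and 2 did not pass the test. Mcm5 read 10.04 at 100 ng, against 10.70 and 10.78 in controls, and Mcm2 read 10.09, against 10.71 and 10.68. Their changes were -0.70 (SE 0.17, adjusted p = 0.00467) and -0.61 (SE 0.18, adjusted p = 0.0107), and that of Mcm2 was lost without control replicate 1 (-0.59, adjusted p = 0.0607). At 30 ng both lay above both of their controls (10.82 and 10.92), and neither was called. Mcm3 read 9.01 and 9.10 in controls, 8.97 and 8.95 with 10 ng, 8.83 with 30 ng and 8.62 with 100 ng, so that all 4 Clk arrays lay below both controls. Its change of -0.44 at 100 ng (SE 0.20, adjusted p = 0.0785) was not called as deposited and was called with median centring (-0.84, adjusted p = 0.00482) and with no filter (-0.44, adjusted p = 0.0450). Mcm6 read between 11.23 and 11.45 on all 6 arrays, and its 100 ng interval of -0.32 to 0.42 includes 0.

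The licensing factor dup, the fly Cdt1, read 10.79 and 10.99 in controls, 10.88 and 10.69 with 10 ng, 11.14 with 30 ng and 11.54 with 100 ng. The 30 and 100 ng arrays lay above the others, and the rise at 100 ng was 0.65 (SE 0.17, 1.57-fold, adjusted p = 0.00733). This call was lost with median centring (0.25, adjusted p = 0.286) and without control replicate 1 (0.55, adjusted p = 0.0791).

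Among the mitotic genes, the 2 activators of the anaphase-promoting complex went opposite ways. fzy, which acts in mitosis, read 11.36 and 11.33 in controls, 11.36 and 11.14 with 10 ng, 10.92 with 30 ng and 9.88 with 100 ng, and fell at 100 ng (log2 change -1.46, SE 0.17, 2.76-fold, adjusted p = 3.85e-05). fzr, which acts in G1 and in endocycling cells, read 7.90 and 8.18 in controls, 7.90 and 7.84 with 10 ng, 8.59 with 30 ng and 9.91 with 100 ng. It rose at 100 ng by 1.87 (SE 0.23, 3.65-fold, adjusted p = 6.13e-05), a change above that of 94.4% of the other tested genes. The 30 ng changes, -0.42 for fzy and 0.55 for fzr, were not called (adjusted p = 0.111 and 0.124) and were both called after quantile normalization (adjusted p = 0.0483 and 0.0452).

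The further probe sets of these 2 genes were dim. A probe set shared by fzr and BaraC read 3.95 and 4.82 in controls, 4.61 and 4.33 with 10 ng, 4.76 with 30 ng and 5.62 with 100 ng. The other 2 probe sets of fzy stayed between 2.56 and 3.06, near or under the highest Tag control, and did not follow the bright one.

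ncd read 12.55 and 12.58 in controls, 12.47 and 12.36 with 10 ng, 12.06 with 30 ng and 9.67 with 100 ng. Every Clk array lay below both controls, and ncd fell at 100 ng (log2 change -2.89, SE 0.15, 7.43-fold, adjusted p = 1.92e-07). All 4 Clk arrays lay under both controls for 3 of the 22 genes (PCNA, Mcm3 and ncd, 13.6%), against 7.65% of all genes, and above both controls for 0, against 1.88%. The 30 and 100 ng arrays both lay under all 4 control and 10 ng arrays for 9 of the 22 (40.9%), against 22.7% of all genes, and above them for 5 (22.7%), against 38% of all genes. The 5 were CycD, Cdk2, Cdk4, dup and fzr.

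**Figure D4:**
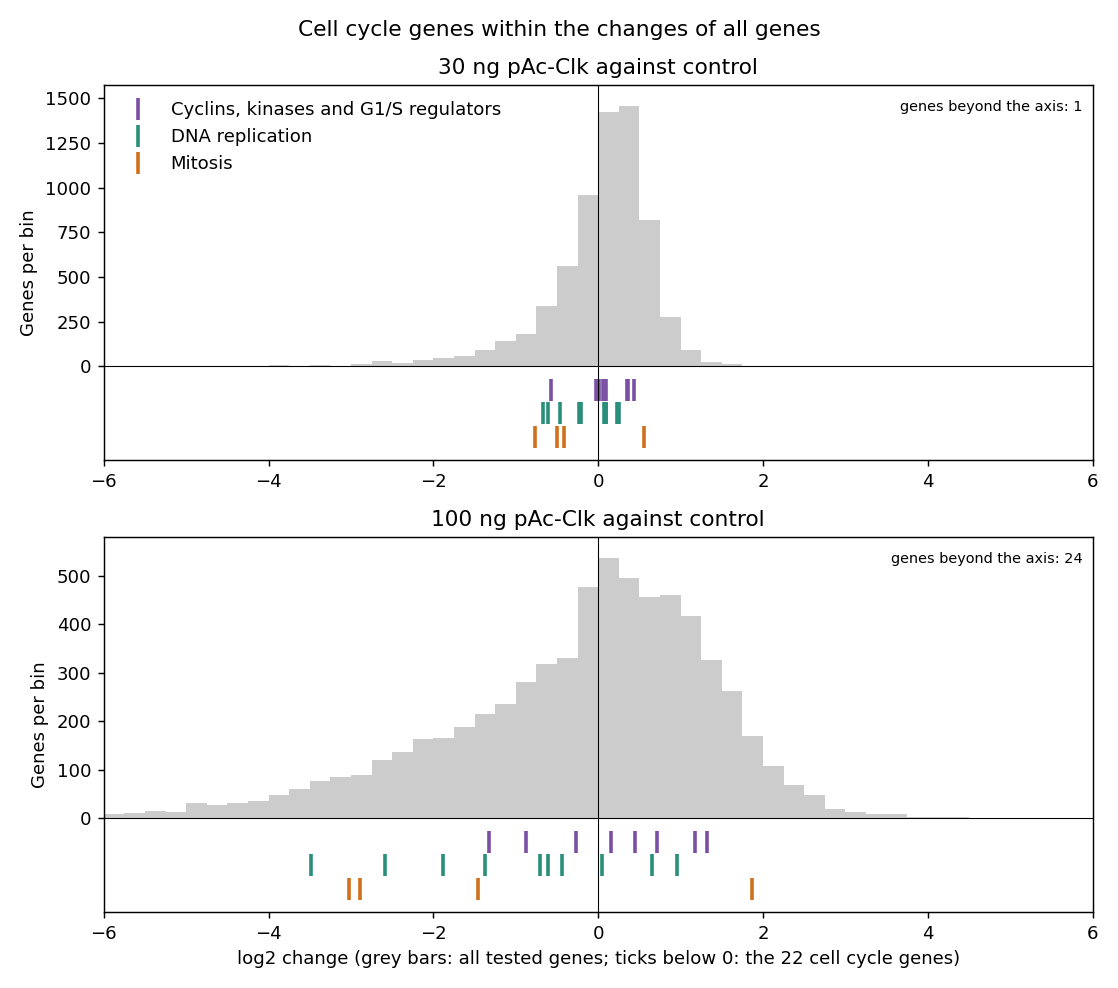
Number of genes (grey bars, bins of 0.25) by log2 change against the control transfection at 30 ng (upper panel) and 100 ng (lower panel), with the 22 cell cycle genes as coloured ticks under the bars. At 100 ng the ticks run from RnrL at -3.48 to fzr at 1.87, inside a spread of all genes that is far wider than at 30 ng.

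Placed among all tested genes at 100 ng, RnrL lay at the percentile 4.80, aurB at 6.84, ncd at 7.68 and PCNA at 9.76, counted from the largest fall. The other genes that fell lay between 16.1 (Orc5) and 33.8 (Mcm2). The other genes that rose lay lower in rank than fzr, at 85.8 for CycD, 82.2 for CycE and 76.5 for Orc1. Cdk4 lay at 70.0, dup at 68.3 and CycB at 62.5. The kind of probe set moved with these directions. Of the 5 genes read by a probe set with the suffix s_at, whose probes can match several transcripts (CycD, CycE, Cdk2, Cdk4 and fzr), 4 rose and 0 fell at 100 ng. Of the 15 read by a probe set with the plain suffix at, 2 rose and 10 fell. Among all genes, 42.7% of those with an s_at probe set were higher and 28.7% lower, against 32.4% and 37.2% for the plain suffix. The part of probe set design in the members' directions was not tested.

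The 2 highest doses were also compared directly, as single arrays that both read low at the 5' end of control transcripts. At 100 ng, 11 of the 22 genes were lower than at 30 ng and 4 higher, or 50% and 18.2%, against 32.6% and 22.7% of all genes. The lower genes were RnrL (-2.81, SE 0.19, adjusted p = 3.83e-06), ncd (-2.39), aurB (-2.26), PCNA (-1.98), Orc5 (-1.42), Rbf (-1.41), Orc2 (-1.16), fzy (-1.04), Dp (-0.93), Mcm2 (-0.83) and Mcm5 (-0.78). Those higher were fzr (1.32, SE 0.27, adjusted p = 0.00273), CycE (1.16), CycD (0.89) and Orc1 (0.85). After quantile normalization 10 were lower and 7 higher, against 29.8% and 32.8% of all genes. After median centring 11 were lower and 2 higher, against 41.6% and 9.5% of all genes. Both doses are set against the same 2 control arrays elsewhere, but the size of this difference does not use them. Its SE and adjusted p do use them. The spread was estimated from the control and 10 ng pairs, and the single arrays were assumed to vary like them. The middle minus 3' control signal was -6.49 at 100 ng and -2.75 at 30 ng, and its part in these differences was not tested.

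Other genes of the same processes were taken from 3 lists, of which 109 of 126 genes were tested. None of them was called at 10 ng (limma), where their median change was -0.08. At an unadjusted p under 0.05 (limma) the count was also 0, against 130 of all 6612 genes. At 30 ng 12 fell and 1 rose, or 11.01% and 0.917% of the 109, against 10.4% and 6.22% of all genes, so the share that fell was near that of all genes. At 100 ng 55 fell and 26 rose, or 50.5% and 23.9%, against 35.4% and 34.9% of all genes.

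Of 35 other replication genes, 7 fell (20%, against 10.4% of all genes) and 0 rose (against 6.22%) at 30 ng. At 100 ng 21 fell (60%, against 35.4%) and 4 rose (11.4%, against 34.9%). Psf1, a subunit of the GINS complex of the replicative helicase, read 9.48 and 9.57 in controls, 9.34 and 9.60 with 10 ng, 7.21 with 30 ng and 5.23 with 100 ng. Its change was -2.32 at 30 ng (SE 0.23, adjusted p = 0.000124) and -4.30 at 100 ng (SE 0.23, 19.7-fold, adjusted p = 1.93e-07). The polymerase subunit genes PolE1, PolA1 and PolA2 differed by -0.94, -0.76 and -1.80 at 30 ng and by -3.93, -3.75 and -3.36 at 100 ng, all of them called. Fen1, the flap nuclease of lagging strand synthesis, fell at 100 ng (-3.20) and differed by -0.02 at 30 ng. Orc4 was lower at both doses (-1.09 and -1.77), as Orc2 and Orc5 were at 100 ng. At 30 ng the calls of PolE1, PolA1 and Orc4 were lost with no filter (adjusted p = 0.102, 0.0710 and 0.0930), those of PolE1 and PolA1 without control replicate 1 (0.0748 and 0.142) and those of PolA1 and Orc4 without control replicate 2 (0.136 and 0.0624). Over 15 alternatives the 30 ng calls of PolE1 and Orc4 were lost in 3 each and that of PolA1 in 7, among them without either 10 ng array. Psf3, another GINS subunit, was higher at 100 ng (1.82, SE 0.22, adjusted p = 5.45e-05) and was picked out after its value was seen.

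Of 49 other mitotic genes, 4 fell and 1 rose at 30 ng, or 8.16% and 2.04%, both under the shares of all genes (10.4% and 6.22%). At 100 ng 25 fell and 13 rose, or 51.0% and 26.5%, against 35.4% and 34.9% of all genes. The condensin subunit gene Cap-G read 9.50 at 30 ng and 6.71 at 100 ng, against 10.29 and 10.47 in controls, and the spindle checkpoint gene Bub3 read 11.77 and 9.55, against 12.50 and 12.55. At 100 ng they differed by -3.67 and -2.98, the checkpoint gene rod by -3.74 and the histone kinase gene ball by -3.40. At 30 ng Cap-G (-0.88), Bub3 (-0.76) and mars (-0.74) fell and Det (0.68) rose. Over 15 alternatives the 30 ng calls of Cap-G and Bub3 were lost in 3 each, that of mars in 5 and that of Det in 6. All 4 were lost with no filter and without control replicate 2, and those of mars and Det also without control replicate 1. SAK, the centriole duplication kinase, was 3.09 higher at 100 ng (SE 0.29, adjusted p = 8.98e-06), and was likewise picked out after its value was seen.

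Of 25 other cyclin, kinase and regulator genes, 1 fell (4%) and 0 rose at 30 ng, under the 10.4% and 6.22% of all genes. At 100 ng 9 fell and 9 rose, 36% each, which is near the 35.4% and 34.9% of all genes. The gene that fell at both was CycK, a cyclin of transcriptional kinases, which differed by -1.44 at 30 ng and -2.22 at 100 ng. The 30 ng call of CycK was lost with no filter (adjusted p = 0.0698). The subunits of the dREAM complex, which represses E2F targets, did not change in 1 direction at 100 ng: lin-52 (-3.51), Caf1-55 (-2.12) and mip130 (-1.79) fell, mip120 rose (1.19, SE 0.19, adjusted p = 0.000305), and E2f2 (0.43), Rbf2 (0.39) and mip40 (0.25) were not called. Those last 4 genes were added after their values were seen, so that each dREAM gene on this list of other genes is given. Rbf and Dp of the same complex, described above as members, fell at 100 ng (-1.32 and -0.87). The 3 genes not called were called higher after quantile normalization (adjusted p = 0.0267 for E2f2, 0.0330 for Rbf2 and 0.0481 for mip40). E2f2 was called in 5 of 15 alternatives, quantile normalization among them. Skp2, an F-box protein, was lower at 100 ng than at 30 ng by -1.18 (SE 0.20, adjusted p = 0.000867).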

How the data were processed

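Biotin-labelled total RNA was measured on Affymetrix arrays, per the labels, and the submitters' processing notes name GCRMA without version or settings. The deposited intensities are on a linear scale, and no column was left unassigned (0 columns). Their natural log spans 1.69 to 15.85 and was used as the log2 GCRMA value, because at face value 8701 of 113712 values exceed a 16-bit scanner; this scale is an inference. Depth has no counterpart here: the number of arrays limits the precision. Probe sets were named through the platform annotation, updated by Entrez identifier. Of 18952 probe sets, 183 controls were left out, 13647 carried 1 symbol, 402 several and 4720 none. Probe sets at 4 or more on at least 2 arrays (8446, 6612 genes) were fitted with limma 3.58.1 in R 4.3.3 (package data.table, version 1.17.8; 1 coefficient per group, eBayes with an intensity trend, 2 residual and 7.60 prior degrees of freedom). Benjamini-Hochberg adjusted p under 0.05 was called within each of 4 comparisons. Alternatives were another scale, no filter or one at 6, quantile normalization, median centring, a pseudocount of 16, robust or untrended moderation, the mean of a gene's probe sets, the replicate block and each array left out. Leaving out both single arrays was added after seeing the data. All members are named. Of the other lists, up to 4 called genes per list and comparison with the smallest p are named, plus Psf3, SAK, mip120, mip40, E2f2 and Rbf2, chosen after their values were seen. Members, lists and tests were chosen with earlier results of these data known. Figures used matplotlib 3.10.9 in Python 3.11.15.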

Additional observations from a re-analysis of the deposited data

How the results depend on the processing

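At 10 ng, 0 of the 22 genes were called under each of the 17 alternatives run. The share of all genes called at 30 ng moved with the setting. Lower and higher calls made up 3.75% and 1.31% of all genes at face value and 2.12% and 1.64% with no filter. They made up 9.06% and 4.49% without the intensity trend and 13.7% and 13.5% with a filter at 6. With robust moderation they were 12.7% and 14.7%, and after quantile normalization 11.8% and 15.2%. The count of 3 of the 22 called at 30 ng moved to 0 at face value and with no filter and to 1 without the intensity trend. It was 5 with a filter at 6 or robust moderation and 6 after quantile normalization, of which 1 was higher (fzr). It ranged from 1 to 4 with a control or 10 ng array left out. The 18 called at 100 ng ranged from 15 to 18 with an array left out and from 17 to 18 otherwise. Of all genes at 100 ng, between 18.9% (no filter) and 43.3% (median centring) were called lower. Between 23.1% (median centring) and 43.6% (quantile normalization) were called higher. The 15 called between 100 and 30 ng ranged from 13 (median centring) to 17 (quantile normalization). Of all genes, 41.6% were lower and 9.5% higher in that comparison with median centring, and 29.8% and 32.8% after quantile normalization. No called gene changed direction under the alternatives run. The median change of all genes was -0.09, 0.15 and 0.05 at 10, 30 and 100 ng as deposited, 0.007, 0.18 and 0.26 after quantile normalization, and -0.08, 0.11 and -0.35 after median centring. With the replicate block 0, 3, 17 and 15 of the 22 genes were called at 10, 30 and 100 ng and between 100 and 30 ng. Of all genes, 0%, 8.62%, 33.7% and 31.6% were then lower and 0.197%, 4.79%, 33.2% and 22% higher. Same-numbered control and 10 ng arrays deviated together (r = 0.33 across probe sets, which are not independent), but 2 pairs do not show that the numbers pair the samples. In fits with the stricter filter, with the block or without a control array, limma pooled the spread over all genes completely (infinite prior degrees of freedom). Single arrays at 30 and 100 ng leave their own spread unmeasured. The cause of the moved counts was not tested.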
